A study of Homo sapiens with 6 samples.

Results

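Metallothioneins are small cysteine-rich proteins that bind zinc, copper and cadmium, and this account follows MT1A, MT1E, MT1F, MT1G, MT1M, MT1X and MT2A in bladder cancer cells depleted of the long noncoding RNA LNMAT1. These 7 genes were taken by symbol from the deposited expression table, all 7 were found, and they are 7 of its 50868 rows with values. The study sequenced polyadenylated RNA from UM-UC-3 and 5637, both established human bladder cancer cell lines, to find genes that change when LNMAT1 is silenced. In either line, a lentivirus stably expressed a control hairpin, sh-NC, or a hairpin that targets LNMAT1, and all cells, controls included, were infected and selected with puromycin. The first targeting construct, sh-LNMAT1#1, is called hairpin 1 and the second, sh-LNMAT1#2, hairpin 2. The 6 groups therefore held 1 library each, and the difference between a hairpin and its control had no replicate check. UM-UC-3 was grown in DMEM and 5637 in RPMI 1640, both with fetal bovine serum, so line and medium cannot be told apart.

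Cells use metallothioneins to buffer zinc and copper and to sequester toxic metals, and the cysteine thiols that hold the metal also react with oxidants. The genes are switched on by zinc and cadmium through the metal-responsive transcription factor MTF1, which binds short metal response elements in their promoters, and glucocorticoids and oxidative stress are known inducers as well. MT2A and the MT1 genes are used in many tissues, whereas MT3 is known from brain and MT4 from stratified squamous epithelium.

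Levels were deposited as FPKM, fragments scaled to gene length and library depth. The libraries held from 19374807 to 24706819 fragments, as read from the values of single-exon genes. The targeted gene, listed as LINC01296 (ENSG00000244306), has near copies elsewhere in the genome, so its level is uncertain. It was lower with either hairpin than in the control of the same label, with log2 changes of -1.13 and -1.02 in UM-UC-3 and -1.23 and -2.21 in 5637. The 5637 values were taken against the library labelled 5637 sh-NC, described next, and the part of that library's identity in them was not tested. A library that stood apart from its label was the one labelled 5637 sh-NC. Over 12717 genes of the same table its Pearson correlation with the UM-UC-3 libraries was 0.922 with the control, 0.985 with hairpin 1 and 0.933 with hairpin 2, and with the 5637 sh-LNMAT1 libraries it was 0.617 and 0.622. UM-UC-3 with hairpin 1 was in turn closer to that library than to its own control, with which its correlation was 0.923. The summed level of 11 epithelial markers was 1.17 FPKM there, 1.31 to 1.46 FPKM in UM-UC-3, and 731 and 1029 FPKM in the 5637 sh-LNMAT1 libraries, where 10 of 11 exceeded 1 FPKM. The sum of 6 mesenchymal markers was 164 FPKM there, 182 to 399 FPKM in UM-UC-3 and 16.5 and 18.5 FPKM in the 5637 sh-LNMAT1 libraries. The comparison of the lines over the 4 sh-LNMAT1 libraries, further on, does not use this library. In these bulk samples, fewer cells with a transcript and less transcript per cell cannot be told apart.

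The coding sequences show how alike the 3 members with measurable levels are, which bears on how reads can be assigned to them. They are from GENCODE 29 (GRCh38), with bases that differ from MT2A in capitals.
MT2A: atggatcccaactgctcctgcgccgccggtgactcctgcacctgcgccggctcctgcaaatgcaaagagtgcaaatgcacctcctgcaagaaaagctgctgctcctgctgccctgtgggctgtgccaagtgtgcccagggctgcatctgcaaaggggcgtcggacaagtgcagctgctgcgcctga
MT1X: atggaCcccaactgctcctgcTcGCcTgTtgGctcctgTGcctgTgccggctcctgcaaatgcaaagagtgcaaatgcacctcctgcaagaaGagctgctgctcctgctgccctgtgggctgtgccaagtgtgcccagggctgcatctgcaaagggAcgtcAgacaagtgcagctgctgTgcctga
MT1F: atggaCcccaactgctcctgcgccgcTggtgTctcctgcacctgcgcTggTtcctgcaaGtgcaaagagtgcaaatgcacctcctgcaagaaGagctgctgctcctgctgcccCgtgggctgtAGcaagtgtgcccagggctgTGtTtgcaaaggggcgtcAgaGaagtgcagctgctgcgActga

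Each of these reading frames is 186 bases long with its stop codon and has 61 codons, of which 20 encode cysteine, the metal ligand of the protein. MT1X differs from MT2A at 14 bases (92.5% identity) and MT1F at 16 (91.4%), and MT1X and MT1F differ from each other at 21 (88.7%). Over whole transcripts the genes are more distinct. Of all stretches of 50 bases in its transcripts, MT2A shared 3.02% with another gene and MT1F 1.22%. MT1X shared 18.3%, and 273 of its 341 shared stretches were with RP11-343H19.2 on the same strand, which was listed at 0 in every library. The shares were 5.76% for MT1A, 7.10% for MT1E, 9.87% for MT1M and 16.5% for MT1G. How the counting treated reads that fit several genes is not given in the sources used here, so the split among near-identical genes is uncertain.

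The promoters of these genes are known for metal response elements, so the core letters TGCACNC and TGCGCNC were searched on both strands in the 250 bases before the RefSeq start (GRCh38.p14). RefSeq promoter entries matched 2 of the 7 members, MT2A and MT1X. MT2A had 7 matches, and 0.0313% of 35116 promoters had at least as many. MT1X had 4 matches, and 0.370% of promoters had at least as many, while 24.8% of all promoters had any match. No position can match both motifs, since they differ in the letter after TGC. Windows of 30 bases around the core that lies 53 or 54 bases before the start are shown for both and for 2 relatives of the family with entries, MT1H and MT1B, with the core in capitals.
MT2A: gggcggggctttTGCACTCgtcccggctct
MT1X: gaggcggggcctcTGCGCCCggccctcttc
MT1H: ggggcagggtctcTGCACCCggctccctcc
MT1B: agggcggggcctcTGCACCCcaccacctcc

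All 4 windows are on the plus strand of chromosome 16, at chr16:56608518-56608547 for MT2A, chr16:56682404-56682433 for MT1X, chr16:56669748-56669777 for MT1H and chr16:56651820-56651849 for MT1B. The core began 54 bases before the start in MT2A and 53 bases before it in the others. A plus-strand core at 53 or 54 bases was found in 60 of 35116 promoters (0.171%). MT1X, with a core at this place, had at least 370 fragments in every library, and MT1H, which has one too, had 0 in all, so the match is a description of the letters and not of use.

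MT2A carried most of the family's signal, MT1X was low but measured in every library, and MT1F was measured only in the 5637 sh-LNMAT1 libraries. The other members were at or near 0. MT1A and MT1M were listed at 0 in all 6 libraries. MT1E had 1 fragment, in the library labelled 5637 sh-NC, and MT1G had 1 fragment in each of 4 libraries and 0 in both sh-NC libraries. A count of 0 allows up to 3 fragments, so MT1A, MT1E, MT1G and MT1M were all under the floor in every library and were not compared. Of 14 other metallothionein genes and pseudogenes, 9 were in the table. None of these had more than 2 fragments over all libraries or exceeded 0.162 FPKM, and 4 of 9 were listed at 0 throughout. For comparison, 0 of 12 housekeeping genes was listed at 0 in any library.

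**Figure D1:**
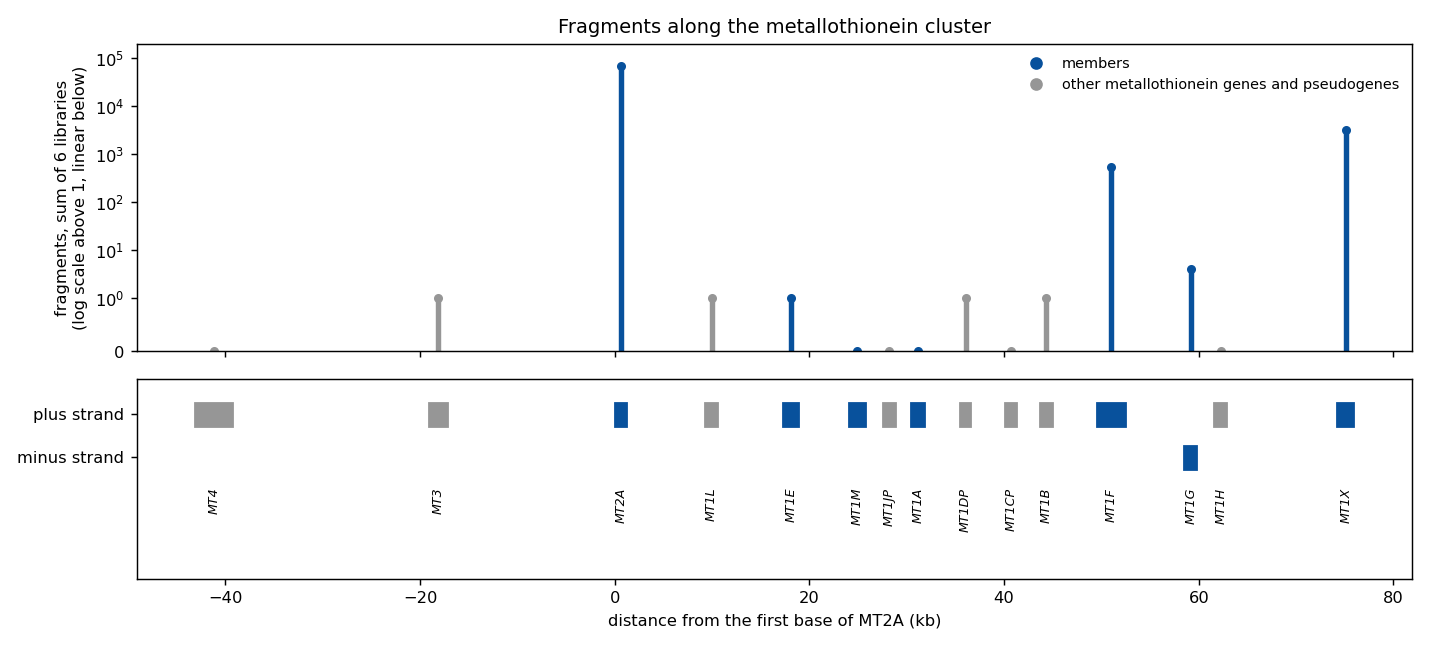
Fragments of each metallothionein gene summed over the 6 libraries (upper panel, log scale above 1 and linear below) and the genes' positions in kb from the first base of MT2A (lower panel, by strand, with MT1A drawn to its GENCODE 29 span). MT2A (67923 fragments), MT1X (3163) and MT1F (542) stand out, and every other gene of the cluster has 4 fragments or fewer.

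The members lie together in band q13 of chromosome 16, within 76.0 kb, and the map of fragments along the cluster shows members at or near 0 lying between measured ones. MT2A is at chr16:56608199-56609497, MT1F at chr16:56657694-56660698 and MT1X at chr16:56682424-56684196, all on the plus strand. MT1E, MT1M and MT1A lie between MT2A and MT1F, and MT1G, the only member on the minus strand, lies between MT1F and MT1X. The deposited span of MT1A, chr16:56638666-56750276, is longer than in GENCODE 29 and runs over MT1F, MT1G and MT1X.

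MT2A (ENSG00000125148) encodes the most widely used metallothionein. In UM-UC-3 it stood at 189.7 FPKM in the control, 205 FPKM after hairpin 1 and 177 FPKM after hairpin 2. The library labelled 5637 sh-NC had 178 FPKM, and 5637 had 109 FPKM after hairpin 1 and 129 FPKM after hairpin 2. Both 5637 sh-LNMAT1 libraries lay below the other 4, which included the library labelled 5637 sh-NC. Between 6997 and 14404 fragments stood behind each value, and MT2A ranked between 107 and 185 among the 50868 rows.

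MT1X (ENSG00000187193), an MT1 isoform gene, was far lower. In UM-UC-3 it stood at 4.95 FPKM in the control, 8.86 FPKM after hairpin 1 and 6.02 FPKM after hairpin 2. The library labelled 5637 sh-NC had 7.85 FPKM, and 5637 had 8.69 FPKM after hairpin 1 and 11.9 FPKM after hairpin 2. UM-UC-3 sh-NC was the lowest library and 5637 hairpin 2 the highest, and UM-UC-3 and 5637 libraries overlapped. These values came from 370 to 698 fragments.

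MT1F (ENSG00000198417), another MT1 isoform gene, was listed at 0 in all 3 UM-UC-3 libraries and in the library labelled 5637 sh-NC. It was 4.60 FPKM in 5637 with hairpin 1, from 287 fragments, and 4.39 FPKM with hairpin 2, from 255 fragments. The 5637 sh-LNMAT1 libraries thus stood clear of the other 4. Where it was at 0, a floor of 3 fragments per library corresponds to 0.0405 to 0.0449 FPKM. Against that floor, MT1F was at least 103-fold higher with hairpin 1 and at least 98.4-fold higher with hairpin 2 than the library labelled 5637 sh-NC. Against the UM-UC-3 libraries it was at least 97.7-fold to 113.6-fold higher. These bounds take the 287 and 255 fragments as counted and leave out their counting error. The library labelled 5637 sh-NC and the UM-UC-3 libraries had 0 fragments of MT1F alike, and their epithelial marker sums, given above, were alike low, but the part of that library's identity in the MT1F difference was not tested.

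**Figure D2:**
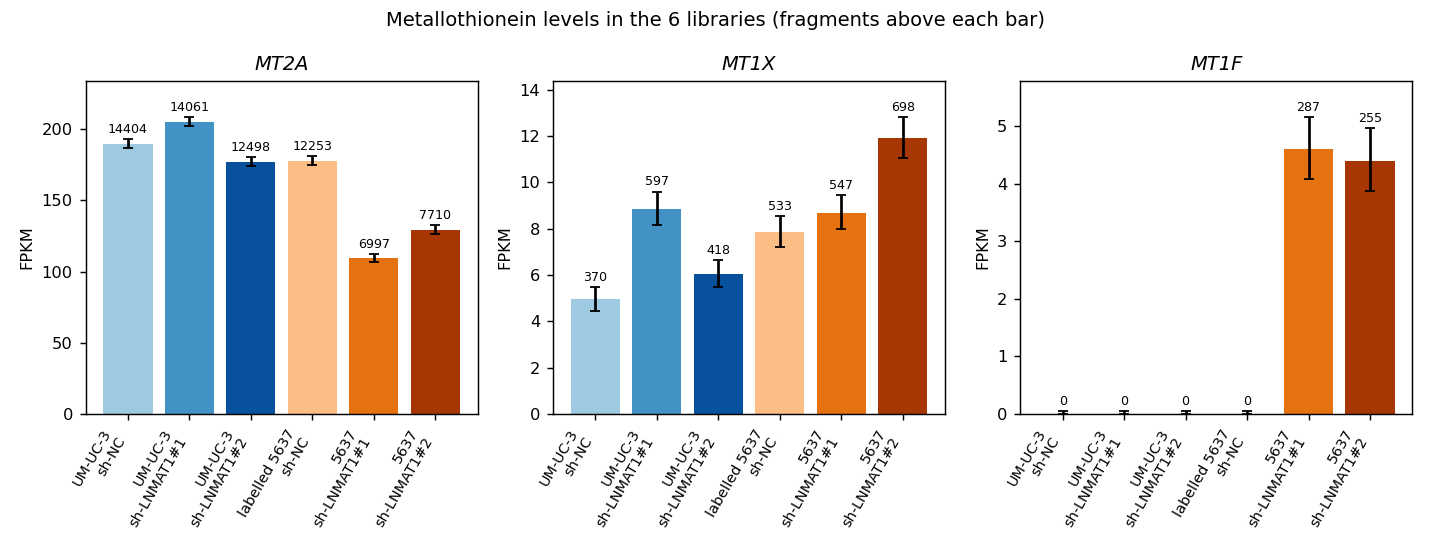
FPKM of MT2A, MT1X and MT1F (y axes from 0, different scales) in the 6 libraries, with the number of fragments above each bar and exact 95% Poisson intervals that cover counting error only. MT2A is lowest and MT1F is present in the 5637 sh-LNMAT1 libraries, and MT1F has 0 fragments in the other 4.

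The summed level of the members was 195, 214 and 183 FPKM in UM-UC-3 with the control, hairpin 1 and hairpin 2. The library labelled 5637 sh-NC summed to 186 FPKM, and 5637 with hairpins 1 and 2 summed to 123 and 146 FPKM. MT2A made up 95.8% to 97.5% of the sum in UM-UC-3 and the library labelled 5637 sh-NC, and 89.1% and 88.8% in the 5637 sh-LNMAT1 libraries. These shares depend on the gene lengths behind the FPKM, described next. The ratio of MT2A to MT1X in FPKM was 38.3, 23.2 and 29.4 in UM-UC-3, 22.6 in the library labelled 5637 sh-NC, and 12.6 and 10.9 in the 5637 sh-LNMAT1 libraries. MT1X and MT1F thus took a larger share in the libraries that also held the epithelial markers.

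The scale of FPKM matters when members are compared with one another. The deposited values came out as whole fragments when the length was the sum of all distinct annotated exons, overlapping ones counted separately. That length was 3073 bases for MT2A, whose transcripts are 416 to 903 bases long, so the FPKM is 3.40 to 7.39 times below a value per transcript length. For MT1X it was 3025 bases against transcripts of 450 to 1727, and for MT1F 2996 against 317 to 1573. Scaled to its longest transcript, MT2A in 5637 with hairpin 1 was 372 FPKM, still above MT1X scaled to its shortest, 58.4 FPKM. MT1X scaled to its longest transcript was 15.2 FPKM in that library and MT1F scaled to its shortest was 43.5 FPKM, so the order of MT1X and MT1F was not settled. Ratios of the FPKM of 1 gene between libraries are not touched by this choice, as long as every library has the same length. The log2 differences used below do depend on it, because a fixed constant is added to the FPKM. So does the filter on mean FPKM.

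To ask what LNMAT1 knockdown did in UM-UC-3, each hairpin was compared with sh-NC as a difference of log2(FPKM + 0.5), a scale that understates changes of low genes, and genes averaging under 1 FPKM over the 3 libraries were left out. MT2A differed by 0.11 with hairpin 1 and -0.10 with hairpin 2, in opposite directions. MT1X was higher with both hairpins, by 0.78 and 0.26, and the hairpins differed from each other by -0.52 (hairpin 2 minus hairpin 1). As a ratio of fragments per depth, MT1X was 1.79 times its control with hairpin 1 (exact 95% binomial interval 1.57 to 2.04) and 1.22 times with hairpin 2 (1.05 to 1.40). These intervals cover counting error only. The larger change was in the hairpin 1 library, whose 8.86 FPKM lay near the 7.85 FPKM of the library labelled 5637 sh-NC that it resembled across genes, and the part of this likeness in the MT1X change was not tested. Of all genes kept, 90.4% had a smaller or more negative change than MT1X with hairpin 1 and 75.4% with hairpin 2. Of the 2 members kept, 0 were at least 2-fold higher and 0 at least 2-fold lower with both hairpins, while 1.08% of 12025 genes were higher and 0.358% lower.

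With both hairpins in 5637, MT2A was lower and MT1F higher than in that line's labelled control. The log2 change of MT2A was -0.70 with hairpin 1 and -0.46 with hairpin 2, or 0.616 (0.598 to 0.634) and 0.729 (0.708 to 0.750) of the level in that library. MT1X differed by 0.14 and 0.57, ratios of 1.11 (0.981 to 1.25) and 1.52 (1.35 to 1.70). For MT1F the differences on this scale were 3.35 and 3.29, which depend on the pseudocount, and the bounds given above do not. Of the 3 members kept, 1 (MT1F) was at least 2-fold higher with both hairpins and 0 were lower, against 18.5% higher and 12.3% lower of 12791 genes. MT1F passed the filter only through the libraries in which it was high. Over all genes this comparison sets libraries with epithelial markers against a control without them, as the plot of log2 differences shows by its wider spread.

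**Figure D3:**
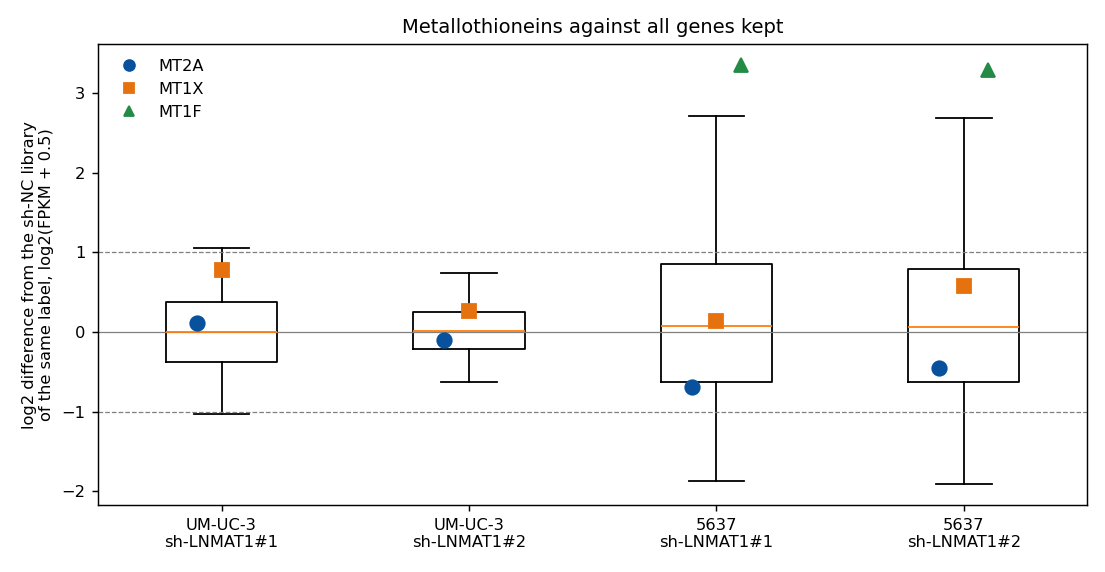
Difference from the sh-NC library of the same label, on the scale of log2(FPKM + 0.5), for MT2A, MT1X and MT1F (symbols) and for all genes kept (box, quartiles and median; whiskers, 5th and 95th percentiles; dashed lines, 2-fold). MT1F lies above the whisker in 5637 at 3.35 and 3.29, and MT2A and MT1X lie inside the whiskers in all 4 comparisons.

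Pooling the lines, the 4 sh-LNMAT1 libraries were compared with both sh-NC libraries by limma with the line as covariate. No member passed, with 0 of 12717 genes called (0%) at an adjusted p under 0.05 and 811 at an unadjusted p under 0.05. The difference was -0.28 (SE 0.25, limma adjusted p = 0.663) for MT2A and 0.44 (SE 0.27, adjusted p = 0.581) for MT1X. For MT1F the fitted difference was 1.66 (SE 0.82, adjusted p = 0.569), and 2.76 and 1.23 with pseudocounts of 0.1 and 1. MT1F passed the filter only through the 5637 sh-LNMAT1 libraries, so the size of this difference is set by the pseudocount and it is read as no test. Whether the hairpin effect differed between the lines was asked with an interaction term, which called 18.8% of 12717 genes, 9.99% higher in 5637 and 8.79% lower. For MT2A the term was -0.58 (adjusted p = 0.278) and for MT1X -0.16 (adjusted p = 0.828). For MT1F the fitted term was 3.32, but MT1F was at 0 in 4 of the 6 libraries and passed the filter only through the others, so the term is set by the pseudocount and is read as no test. The term rests on the library labelled 5637 sh-NC, and without it no interaction could be fitted.

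The lines themselves were compared over the 4 sh-LNMAT1 libraries, which are alike in construct. MT1F, at 0 in both UM-UC-3 libraries, entered this fit only through the 5637 libraries in which it was high. Its call there was fixed by the filter and is read as no test, its fitted difference of 3.32 is set by the pseudocount, and the bounds against UM-UC-3 given above stand in its place. MT2A was lower in 5637 by this test, at -0.68 (SE 0.20, adjusted p = 0.047), also with no overlap. MT1X differed by 0.45 (SE 0.28, adjusted p = 0.250), and its libraries overlapped. Of the 2 members that passed the filter in both lines, 0 were called higher and 1 lower, while 38.5% of 12844 genes were called, 20.1% higher and 18.4% lower. The call of MT2A was close to the threshold and was lost with the hairpin number as a block (adjusted p = 0.0568), with 75th-percentile scaling (0.0621), without a trend (0.0561), without a filter (0.109), with all 6 libraries by label (0.300) and without any 1 of the libraries 5637 hairpin 1 (0.347), 5637 hairpin 2 (0.218) and UM-UC-3 hairpin 1 (0.0772). It was negative in each of these.

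**Figure D4:**
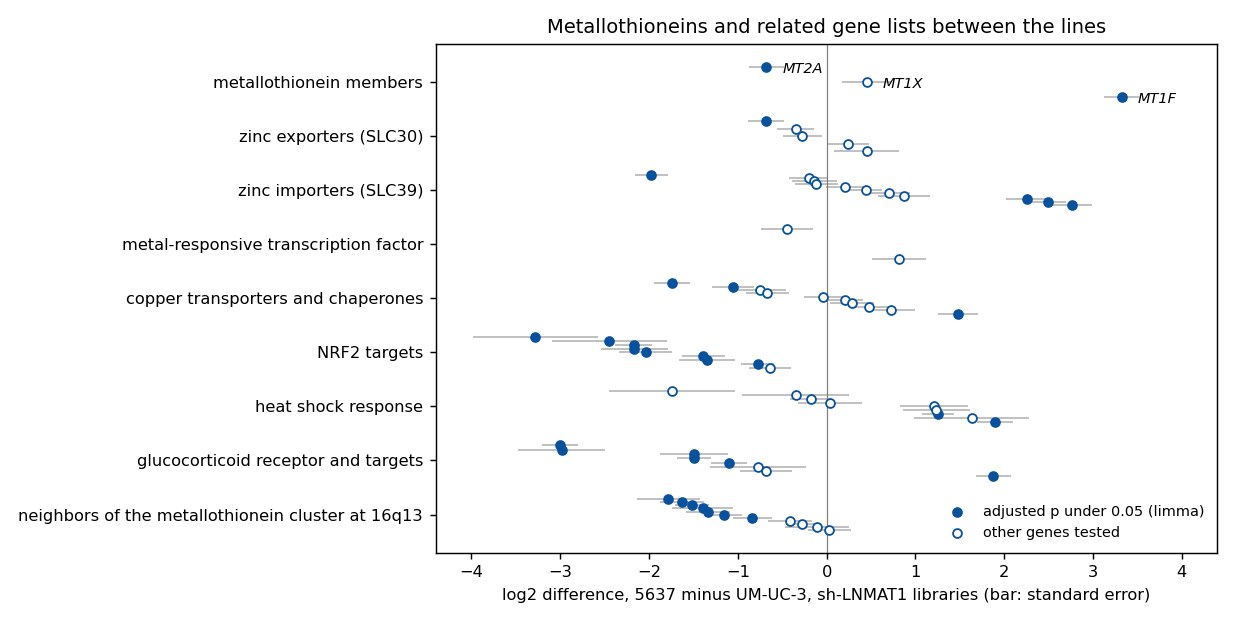
Log2 difference between the lines (5637 minus UM-UC-3, 4 sh-LNMAT1 libraries; bars, standard error) for the metallothioneins and each gene of the related lists that was tested, filled where the limma adjusted p was under 0.05. MT1F lies at 3.32, a value set by the pseudocount and by its zeros in UM-UC-3, and MT2A at -0.68. The NRF2 targets and the neighbors of the cluster lie mostly below 0.

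The genes around zinc and copper showed no common direction between the lines. MTF1, the activator of metallothionein transcription, was 4.30, 4.08 and 6.72 FPKM in UM-UC-3 with the control, hairpin 1 and hairpin 2. The library labelled 5637 sh-NC had 4.03 FPKM, and 5637 had 3.30 FPKM with hairpin 1 and 4.18 FPKM with hairpin 2. The line difference was -0.45 (limma adjusted p = 0.274), and neither of the genes MTF1 and MTF2 was called. SLC30A1, a zinc exporter that is itself a target of MTF1, was 10.3, 6.03 and 12.4 FPKM in UM-UC-3 and 5.64, 10.7 and 13.6 FPKM in the libraries labelled 5637, in the same order. Its line difference was 0.45 (adjusted p = 0.371). Among 5 zinc exporters tested, 0 were higher in 5637 and 1 lower, SLC30A7 at -0.68 (adjusted p = 0.0476), a share lower that was near the 18.4% of all genes. The list median was -0.27, against -0.016 over all genes tested.

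Of 11 zinc importers of the SLC39 family tested, 3 were higher in 5637 and 1 lower, with a median of 0.44, and this share called was near the 38.5% of all genes. SLC39A8, which also carries manganese and cadmium, was higher by 2.76, SLC39A11 by 2.49 and SLC39A4, the intestinal zinc importer, by 2.26. SLC39A14 was lower, at -1.97. SLC39A4 was at 0.81 and 0.56 FPKM in UM-UC-3 with hairpins 1 and 2. It passed the filter only through 5637, and its call carries that limit. Among 10 copper transporters and chaperones, 1 was higher and 2 were lower, with a median of 0.08, beside 20.1% higher and 18.4% lower of all genes. The vesicular transporter SLC31A2 was higher by 1.48, and the copper chaperone ATOX1 and the copper regulator COMMD1 were lower, at -1.06 and -1.74. SLC31A2 was at 0.84 and 0.74 FPKM in UM-UC-3 with hairpins 1 and 2, and COMMD1 at 0.85 and 0.82 FPKM in 5637. Each passed the filter only through the other line, and its call carries that limit.

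The lists for oxidative stress and glucocorticoids, other known inducers of metallothioneins, held many genes that were lower in 5637. Whether this bears on the metallothionein levels was not tested. Of 9 NRF2 targets tested, genes of the oxidative stress response, 0 were higher and 8 lower, beside 20.1% higher and 18.4% lower of all genes, with a median of -2.04 beside -0.016. Of the 8, OSGIN1, at 0.59 and 0.75 FPKM in 5637 with hairpins 1 and 2, passed the filter only through UM-UC-3. HMOX1, heme oxygenase, was 30.8, 74.9 and 15.9 FPKM in UM-UC-3 with the control, hairpin 1 and hairpin 2. HMOX1 was at 57.2 FPKM in the labelled 5637 control, and 5637 had 3.42 FPKM with hairpin 1 and 2.86 FPKM with hairpin 2. The line difference was -3.28 (limma adjusted p = 0.0178). The 5637 sh-LNMAT1 libraries were below all others, and in UM-UC-3 the hairpins lay on either side of the control. TXNRD1 (thioredoxin reductase) differed by -2.45, SRXN1 (sulfiredoxin) by -2.17 and GCLM (a subunit of the enzyme that begins glutathione synthesis) by -2.16.

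NR3C1, the glucocorticoid receptor, was 7.07, 6.26 and 6.99 FPKM in UM-UC-3, 6.92 FPKM in the labelled 5637 control, and 2.77 and 2.87 FPKM in 5637 with the hairpins. Its line difference was -1.10 (limma adjusted p = 0.0105). With its targets, 8 genes were tested, of which 1 was higher and 5 lower, beside 20.1% and 18.4% of all genes, with a median of -1.30. ERRFI1, a feedback inhibitor of EGFR, differed by -3.01, the phosphatase gene DUSP1 by -2.98 and the kinase gene SGK1 by 1.88. SGK1 was at 0.76 and 0.79 FPKM in UM-UC-3 with hairpins 1 and 2. PER1, also called lower, was at 0.63 and 0.50 FPKM in 5637 with the hairpins. Each of SGK1 and PER1 passed the filter only through the other line, and its call carries that limit. Of 9 heat shock genes, 2 were higher and 0 lower, the chaperone genes HSPH1 at 1.89 and HSP90AA1 at 1.25, and the share higher was near the 20.1% of all genes. In UM-UC-3, no kept gene of any of these lists was at least 2-fold higher or lower with both hairpins.

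Many genes on either side of the metallothionein cluster were lower in 5637, as was MT2A, whose call was close to the threshold. Inside the cluster, MT1X was not lower, at 0.45 (limma adjusted p = 0.250), and MT1F was measured only in the 5637 sh-LNMAT1 libraries. Of the neighbors, 16 were in the table and 11 were tested. Of these, 0 were higher and 7 lower, beside 20.1% higher and 18.4% lower of all genes, with a median of -1.15. Of the 7, BBS2 was at 1.01 and 0.96 FPKM in 5637 with hairpins 1 and 2, near the filter of 1 FPKM. The largest differences were in ARL2BP, which encodes a binding partner of the small GTPase ARL2, at -1.78, HERPUD1, of the endoplasmic reticulum stress response, at -1.63, OGFOD1, a ribosomal protein hydroxylase, at -1.52, and RSPRY1 at -1.40. In the library labelled 5637 sh-NC, ARL2BP was 19.0 FPKM, within the 10.4 to 22.9 FPKM of UM-UC-3, and it was 5.79 and 3.72 FPKM in 5637 with the hairpins.

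The genes most like each member across the 6 libraries were sought among 12717 genes by the root mean square difference of centered log2(FPKM + 0.5). For MT2A they were GCLC, a subunit of the enzyme that begins glutathione synthesis, at 0.0509, SLC35B4, a nucleotide sugar transporter, at 0.0547 and RAP1GDS1 at 0.0588. GCLC ran at 3.40, 3.99 and 3.13 FPKM in UM-UC-3, 3.49 FPKM in the labelled 5637 control, and 1.84 and 2.37 FPKM in 5637 with the hairpins. MT1X was closest to CTH, which encodes the cysteine-producing enzyme cystathionine gamma-lyase, at 0.0891. CTH was 1.84, 4.37 and 2.39 FPKM in UM-UC-3, and 3.53, 3.77 and 5.17 FPKM in the libraries labelled 5637, with the same lowest and highest library as MT1X. MT1F was closest to FRAS1, an extracellular matrix protein gene, at 0.0288, with 4.79 and 4.34 FPKM in the 5637 sh-LNMAT1 libraries and at most 0.0279 FPKM elsewhere. These likenesses are over 6 libraries and carry no test.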

How the data were processed

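RNA of 6 libraries was analysed, 1 per construct and line, grouped by their labels. The authors deposited 1 table of FPKM values with 50869 rows, of which 1 without values was left out. The submitters' processing notes name HISAT2 and hg38. The counting program, annotation and read length are not given in the sources used here. Libraries were made with a TruSeq Stranded mRNA kit. Of the identifiers, 50110 were found in GENCODE 29 and 47537 had the same position.

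Depth was recovered from single-exon genes. With the sum of all distinct exons as length, at least 94.4% of multi-exon values under 1000 fragments came out whole within 0.05 fragments, and the fragments of the metallothioneins follow from it. MT1A and MT1M, at 0 throughout, could not be checked this way. Because the unit is FPKM, no count test was run.

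R 4.3.3 with limma 3.58.1 (lmFit, eBayes with trend, on log2(FPKM + 0.5), mean of at least 1 FPKM, Benjamini-Hochberg adjustment over all genes tested, calls at 0.05) and Python 3.11.15 (numpy 2.4.6, pandas 2.3.3, scipy 1.17.1, matplotlib 3.10.9) were used. The scripts were tested on simulated data with the residual spread of these libraries, capped for the most variable genes. In each simulation 200 genes above a set level were changed. A log2 change of 1 was recovered for 15% of changed genes in the pooled fit and 0% in the interaction and line fits. A log2 change of 3 was recovered for 92.5%, 40% and 79%. The interaction and line fits of the real libraries called 2388 and 4949 genes, so their adjusted threshold was less strict than in the simulations. The recovered shares hold for the simulated setting only. Members not called in the fits of the real libraries are not shown to be unchanged. Residual degrees of freedom were 3 in the pooled fit and 2 in the others, and no spread came from replicate cultures. In the interaction and line fits the spread came from hairpins, so p-values measure only that spread. The pooled fit has no interaction term, so its spread also holds any difference in the knockdown effect between the lines. For MT1F the pooled SE was 0.82, while the hairpins differed by 0 in UM-UC-3 and by -0.06 in the other line. Named were all members, in each list at most 4 genes by size of change among those called between the lines or 2-fold changed with both hairpins in UM-UC-3, MTF1, SLC30A1, HMOX1, NR3C1 and LINC01296, and the nearest patterns. Of 8 leukocyte, endothelial and fibroblast markers, 1 exceeded 1 FPKM in each library, and their sum was 7.84 to 31.2 FPKM. The marker above 1 FPKM was CD68 in UM-UC-3 and the library labelled 5637 sh-NC, and COL1A1 in the 5637 sh-LNMAT1 libraries. In UM-UC-3, VIM was the marker called lower by the 2-fold rule. The members and lists were chosen with earlier results of these data known. Alternatives were other pseudocounts, filters, scaling and thresholds, each hairpin alone, no trend, no line covariate, the hairpin block, other sets of libraries and leaving out each library.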

Additional observations from a re-analysis of the deposited data

Results flagged for a closer look

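The fitted interaction of line and knockdown for MT1F was 3.32 on the log2 scale, past the limma threshold. MT1F passed the filter only through the 5637 sh-LNMAT1 libraries, and the size is set by the pseudocount, so this is a description and no test. With 0 fragments in all UM-UC-3 libraries, the term is the difference between the 5637 sh-LNMAT1 libraries and the library labelled 5637 sh-NC, which had an epithelial marker sum of 1.17 FPKM against 731 and 1029 FPKM. The part of that library's identity in the result was not tested.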

How the results depend on the processing

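Of 124 values recomputed for single members, 111 kept their direction and their side of the threshold or stayed within the spread between hairpins. Of the rest, 9 lost their call, 1 gained one, 2 moved and 1 changed sign. With a filter of 5 FPKM, MT1F was not tested, and the members at least 2-fold higher in 5637, called higher by the interaction and called higher between the lines were 0 each. With all 6 libraries by label, the members called between the lines were 0 higher and 0 lower. Members called lower between the lines (1, MT2A) were 0 with no filter, with 75th-percentile scaling, with no trend and with the replicate block of hairpin number, and 0 to 1 when 1 library was left out. The adjusted p of MT2A by limma ran from 0.0410 to 0.347 over the alternatives. In the pooled comparison, members called higher ran from 0 to 1 when 1 library was left out. MT1F was the one called without UM-UC-3 sh-NC (3.32), where only the control labelled 5637 remained. This call, and each other call of MT1F, followed from the filter, which MT1F passed only through the libraries in which it was high. Without the library labelled 5637 sh-NC, the knockdown difference of MT2A rested on the UM-UC-3 libraries alone. It went from -0.28 to 0.0081, a value near 0 (range with 1 library left out, -0.58 to 0.0081). MT1F was at 0 in each library of that contrast. Without either 5637 sh-LNMAT1 library in turn, MT1F fell under the filter and gave no pooled value. The mean change of MT1F in 5637, 3.32, was 5.52 with a pseudocount of 0.1 and 2.46 with 1. Scaling to the 75th percentile shifted libraries by -0.0488 to 0.0320 on the log2 scale. Knockdown was compared within a line without pairs. No paired analysis was possible because either line had a single library of every construct. The hairpin number pairs libraries by construct only. A count of 0 allows up to 3 fragments, which limits what can be said of MT1A, MT1E, MT1G and MT1M.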
